A study of Mus musculus with 14 samples.

Results

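Liver expression of the unfolded protein response and the integrated stress response was followed through 33 named genes in mice on 2 diets. The genes were chosen by symbol, from the gene names in the authors' result table, and joined by Ensembl gene ID to the read counts. All 33 were found among the 37681 genes counted, and all 33 passed the filter on low counts that left 17223 genes for testing. The study sequenced poly(A)-selected liver RNA from 14 mice, 1 library per mouse, 7 of them fed the diet labelled low fat/low sucrose (LFLS) and 7 fed the one labelled high fat/high sucrose (HFHS), so the question asked of each gene was whether its RNA level differed between the diets. None of the sources used here gives the strain, sex or age of the mice, their time on the diet or their feeding state. Every library title opens with a number, 1 for 4 mice of each diet (replicates 1 to 4) and 2 for 3 mice of each diet (replicates 5 to 7), and these sources do not say what it stands for.

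Proteins bound for secretion fold in the endoplasmic reticulum (ER), and hepatocytes, which make most plasma proteins, carry a heavy load of them. Unfolded protein in the ER is sensed by ATF6, by IRE1alpha (gene Ern1), which splices the Xbp1 messenger RNA into the form that encodes an active transcription factor, and by PERK (gene Eif2ak3), which phosphorylates the initiation factor eIF2alpha. Phosphorylated eIF2alpha slows general translation and favors translation of ATF4, and because other kinases act on the same site in response to amino acid shortage, this arm is also called the integrated stress response. The genes were grouped by these roles into 5 sensors and transcription factors, 12 genes placed in the ATF6 branch, 8 in the XBP1 branch and 8 in the ATF4 branch. The grouping is a simplification, since many chaperone and degradation genes respond to both ATF6 and XBP1. Counts per gene do not separate the spliced from the unspliced form of Xbp1 and say nothing of cleaved ATF6 protein or of phosphorylation.

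The DNA elements through which these factors are known to act are shown first, where the start regions of the genes hold them. RefSeq start sites on mouse build GRCm38.p6 were available for 29 of the 33 genes (Atf6, Derl1, Hyou1 and Manf were not matched), and the 250 bases before each start were searched on both strands. The ER stress response element, ERSE, was searched as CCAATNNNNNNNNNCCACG, in which the CCAAT part binds the factor NF-Y and the CCACG part binds ATF6 or XBP1. It was present before 8 of the 29 genes, against 0.1295% of the 27025 gene symbols in the same table. The genes were listed for their known roles in these pathways. For this and the other elements, a share above that of all symbols is therefore no independent evidence. In the lines that follow, each site is written 5′ to 3′ in the direction of the element, with the fixed bases in capitals and the spacer in lower case.
Hspa5: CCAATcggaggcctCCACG
Hsp90b1, distal: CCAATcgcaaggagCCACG
Hsp90b1, proximal: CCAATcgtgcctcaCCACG
Calr: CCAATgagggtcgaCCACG
Canx: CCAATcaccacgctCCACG
Pdia6: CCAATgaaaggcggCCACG
Creld2: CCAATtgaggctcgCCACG
Dnajc3: CCAATcagcgccaaCCACG
Syvn1: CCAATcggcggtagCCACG

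The 8 genes comprised 6 of the 10 ATF6-branch genes in the table, 2 of the 7 XBP1-branch genes, none of the 4 sensors and factors and none of the 8 ATF4-branch genes. Hsp90b1, which encodes the ER chaperone GRP94, was the only gene with a pair of exact ERSE matches. Near matches were not searched, so this does not count all possible sites of a gene. The shorter ERSE-II element, ATTGGNCCACG, was present before Herpud1 alone (1 of 29 genes, against 0.037% of all symbols), and the XBP1-type element TGACGTGG was present before 0 of the 29 (0.603% of all symbols). The core of the C/EBP-ATF response element through which ATF4 acts, here called CARE and searched as TGATGNAA, was present before 4 of the 29 genes, against 3.91% of all symbols: 3 of the 8 ATF4-branch genes (Asns, Atf3 and Chac1) and Herpud1. No match overlapped another. The 5 shorter sites read as follows, with the same use of capitals.
Herpud1, ERSE-II: ATTGGgCCACG
Herpud1, CARE: TGATGcAA
Asns, CARE: TGATGaAA
Atf3, CARE: TGATGcAA
Chac1, CARE: TGATGcAA

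The 250 bases before the start are given for the genes of 3 roles to which the diet comparison returns: Hspa5 (ENSMUSG00000026864), the main ER chaperone, Calr (ENSMUSG00000003814), a chaperone of glycoproteins, Syvn1 (ENSMUSG00000024807), the ubiquitin ligase of ER-associated degradation, and Asns (ENSMUSG00000029752), asparagine synthetase. Each is written 5′ to 3′ on the strand of its gene, ending at the base before the start, with the fixed bases of a matched element in capitals. The element of Calr lies on the opposite strand, so it reads as its reverse complement.
Hspa5 (chr2:34771840-34772089, plus strand): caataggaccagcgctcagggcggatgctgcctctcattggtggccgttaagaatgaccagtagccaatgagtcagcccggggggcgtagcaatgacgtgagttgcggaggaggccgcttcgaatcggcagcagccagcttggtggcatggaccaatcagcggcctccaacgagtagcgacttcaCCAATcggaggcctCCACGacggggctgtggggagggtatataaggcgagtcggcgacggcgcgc
Calr (chr8:84846932-84847181, minus strand): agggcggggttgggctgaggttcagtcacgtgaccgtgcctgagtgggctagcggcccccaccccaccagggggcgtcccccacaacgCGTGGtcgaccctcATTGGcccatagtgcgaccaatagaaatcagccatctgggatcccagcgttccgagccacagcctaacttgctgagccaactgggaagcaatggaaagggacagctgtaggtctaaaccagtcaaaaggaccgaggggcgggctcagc
Syvn1 (chr19:6046326-6046575, plus strand): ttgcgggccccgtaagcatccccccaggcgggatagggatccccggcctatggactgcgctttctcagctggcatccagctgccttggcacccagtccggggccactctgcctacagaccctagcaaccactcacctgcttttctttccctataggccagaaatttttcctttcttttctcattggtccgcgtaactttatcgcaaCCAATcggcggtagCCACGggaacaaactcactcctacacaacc
Asns (chr6:7693210-7693459, minus strand): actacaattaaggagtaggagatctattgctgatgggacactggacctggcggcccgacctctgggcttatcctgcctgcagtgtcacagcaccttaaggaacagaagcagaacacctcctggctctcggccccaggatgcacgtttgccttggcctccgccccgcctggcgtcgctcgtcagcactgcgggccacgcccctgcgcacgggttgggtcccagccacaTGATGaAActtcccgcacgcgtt

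**Figure D1:**
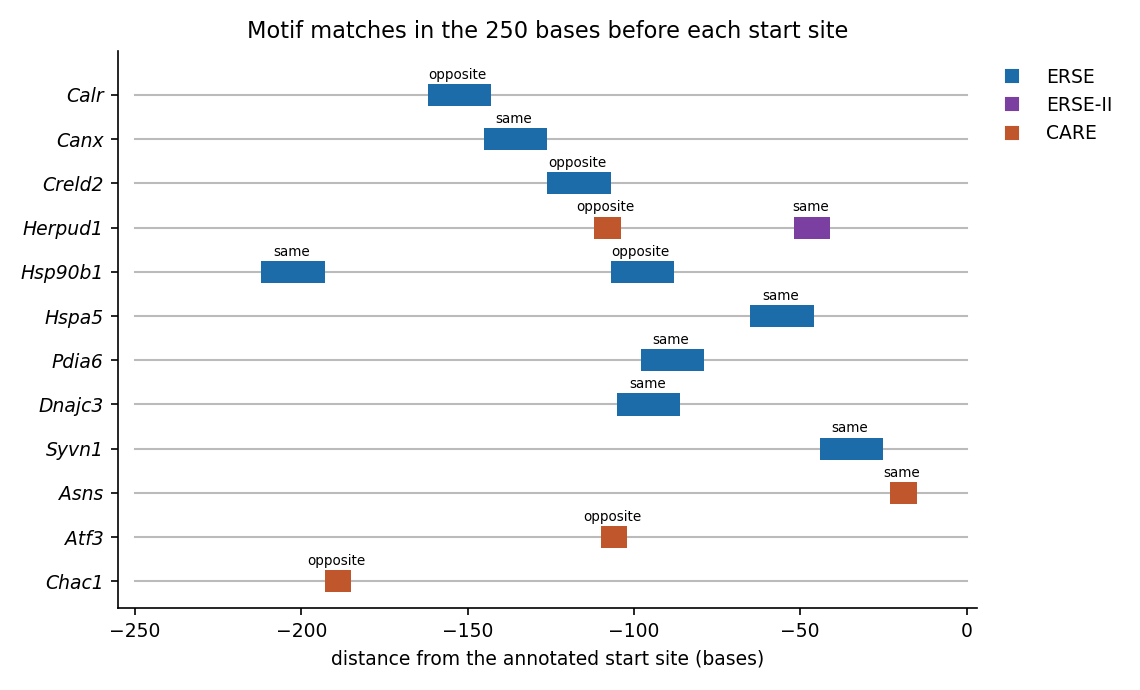
Position of each motif match in the 250 bases before the annotated start site (x axis, distance from the start in bases) for the 12 genes with a match. Bars span the match, colors give the motif, and the word above a bar tells whether the motif reads on the strand of the gene or on the opposite strand; the ERSE of Syvn1 ends 26 bases and the CARE of Asns 16 bases before the start, and the distal ERSE of Hsp90b1 begins 212 bases before it.

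A match is only a description of the letters in this window. The 9 genes with an ERSE or ERSE-II had a median log2 fold change, HFHS against LFLS, of -0.21, with 8 of them lower. The other 20 genes in the table, which include the CARE genes Asns, Atf3 and Chac1, had a median of -0.22, with 18 lower. No test of this division was made.

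The libraries held 18219000 to 52827000 counts (median 29289000), and the 33 genes together took 0.405% to 0.730% of them. The hepatocyte markers were abundant in every library, with a summed level of 105620 to 150470 CPM (counts scaled to a common library size) on LFLS and 80946 to 125480 on HFHS. Of these 10 markers, 8 also had lower fitted levels on HFHS (median log2 fold change -0.49) and 0 passed the edgeR test at an adjusted p below 0.05. Of the 10, 6 were lower at an unadjusted p below 0.05, beside 10.8% of all tested genes. When the title number was added to the model 2 passed as lower, beside 4.56% of all tested genes. Of the 10 Kupffer cell and macrophage markers, 9 had lower fitted levels on HFHS (median -0.20; summed level 235 to 532 CPM on LFLS and 312 to 507 CPM on HFHS), and of the 8 stellate cell markers 6 had higher ones (median 0.24; 245 to 314 CPM and 271 to 667 CPM). None of these 18 markers passed the edgeR test. LFLS replicate 1 and HFHS replicate 1 stood apart from the rest. LFLS replicate 1 had the lowest share of mitochondrial counts (1.39%, against a median of 4.39% over all libraries) and the lowest LFLS level of Hsp90b1, Canx, Pdia3, Dnajc3, Edem1 and Derl2. It was also the lowest LFLS library for Hspa5, Xbp1, Atf4, Manf, Dnajb9, Dnajb11 and Asns, and the highest for Ddit3, Atf3, Trib3 and Sesn2. HFHS replicate 1 had the lowest summed hepatocyte level (80946 CPM), the highest stellate level (667 CPM, against at most 342 in any other library) and the highest bile duct level (164 CPM, against at most 90.1). The mitochondrial share had a median of 3.77% on LFLS and 4.68% on HFHS, and within title number 1 it did not overlap between the diets (1.39% to 3.77% and 4.24% to 5.10%). Cells that are rich in ER chaperones could add to these genes, so their markers were read as well. The 15 exocrine pancreas markers summed to 17.4 to 1742 CPM on LFLS, highest in LFLS replicate 2, and to 15.1 to 478 CPM on HFHS. The 10 plasma cell and B cell markers summed to 17.0 to 37.3 CPM on LFLS and 26.4 to 67.3 CPM on HFHS, with Tnfrsf17 at the lowest count of the table in 10 of 14 libraries and Ighm higher on HFHS (log2 fold change 0.96; edgeR, adjusted p = 0.0354). The part of all these marker lists and of the mitochondrial share in the values of the stress genes was not tested. In bulk tissue, fewer cells of a type and less RNA per cell cannot be told apart.

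Across the whole group, levels were mostly slightly lower on the HFHS diet, and no single gene passed the test of diet. In edgeR's quasi-likelihood test, adjusted by the Benjamini-Hochberg method over all tested genes, 0 of the 33 genes had an adjusted p below 0.05, beside 484 of 17223 genes (2.81%) in either direction. The fitted level was lower on HFHS for 30 of the 33 genes, while 51.3% of all tested genes were lower, and the median log2 fold change was -0.21 for the 33 genes and -0.01 for all tested genes. At an unadjusted p below 0.05, 8 of the 33 were lower (Ern1, Hspa5, Calr, Hyou1, Manf, Syvn1, Asns and Chac1; 10.8% of all genes were lower at that level) and 1 was higher (Derl2; 8.81% of all genes). For none of the 33 did the 7 HFHS libraries lie wholly outside the LFLS range, which 1.65% of all tested genes did. No test was made of the list as a whole. Without LFLS replicate 1, 28 of the 33 were lower and the median was -0.29, and without HFHS replicate 1, 30 were lower, the median was -0.21 and 0 passed. Herpud1, Derl2 and Atf3 were the 3 genes with a higher fitted level on HFHS.

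**Figure D2:**
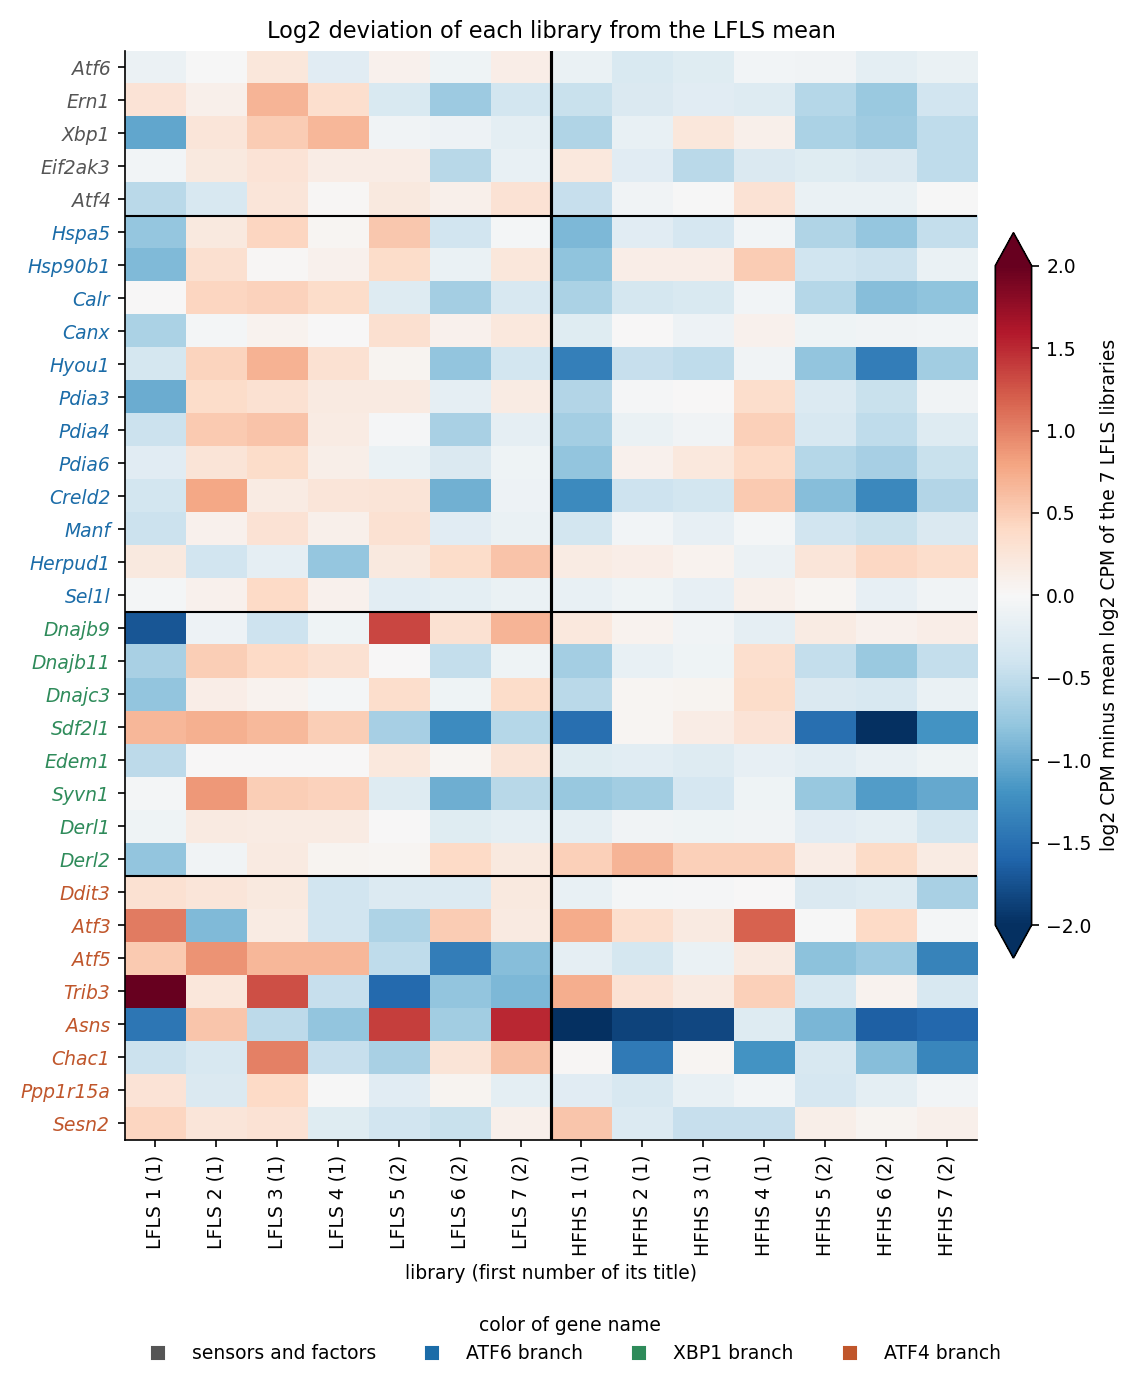
Log2 CPM of each gene (rows, ordered by role) in each library (columns, with the title number in brackets) minus the mean of the 7 LFLS libraries; blue is lower and red is higher, and the color scale ends at 2 log2 units. The median over the 33 genes ran from -0.35 in LFLS replicate 1 to 0.28 in LFLS replicate 3, and from -0.43 in HFHS replicate 6 to 0.00 in HFHS replicate 4, so the mice of the 2 diets overlapped.

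The per-mouse medians show how far single animals differed within a diet. In LFLS replicate 1 the ATF6-branch genes had a median of -0.40 log2 units from the LFLS mean and the XBP1-branch genes -0.58, while its ATF4-branch genes had a median of 0.37. In HFHS replicates 5, 6 and 7 the 33 genes had medians of -0.32, -0.43 and -0.31. HFHS replicate 1 was similar at -0.37. HFHS replicates 2, 3 and 4 lay nearer to the LFLS mean, at -0.13, -0.09 and 0.00.

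All 5 sensors and factors had lower fitted levels on HFHS, with a median log2 fold change of -0.27, and none passed the test. Ern1 (ENSMUSG00000020715) encodes the kinase and RNase IRE1alpha. Its level was 42.6, 75.4 and 112 CPM (lowest, median and highest library) on LFLS and 41.8, 53.8 and 59.6 CPM on HFHS, a log2 fold change of -0.48 ± 0.18 (SE, n = 7 per diet; edgeR quasi-likelihood test, adjusted p = 0.153). All 7 HFHS libraries lay below the LFLS median, and the ranges overlapped, with the 3 LFLS libraries of title number 2 as low as the HFHS ones. Xbp1, the substrate of IRE1alpha, had 86.6, 169 and 282 CPM on LFLS and 108, 125 and 208 CPM on HFHS, with a log2 fold change of -0.36 ± 0.23 (edgeR, adjusted p = 0.389). Its lowest library of all was LFLS replicate 1, and 5 of the 7 HFHS libraries lay below the LFLS median.

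Eif2ak3, the gene of PERK, had 12.2, 19.9 and 21.7 CPM on LFLS and 12.3, 14.7 and 20.9 CPM on HFHS, a log2 fold change of -0.27 ± 0.14 (edgeR, adjusted p = 0.288). The HFHS library near the top of the LFLS range was replicate 1, and the other 6 lay below the LFLS median. Atf6, the membrane-bound factor that is cut in the Golgi, had 94.4, 109.6 and 129.55 CPM on LFLS and 89.1, 100.6 and 107 CPM on HFHS. This small difference (log2 fold change -0.17 ± 0.08; edgeR, adjusted p = 0.275) placed all 7 HFHS libraries below the LFLS median. Atf4 had 40.9, 64.3 and 73.0 CPM on LFLS and 43.1, 56.995 and 72.6 CPM on HFHS, with a log2 fold change of -0.09 ± 0.14 (edgeR, adjusted p = 0.755), so its ranges almost coincided. ATF4 is controlled mainly at translation, which RNA counts do not read.

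Of the 12 ATF6-branch genes, 11 had lower fitted levels on HFHS (median log2 fold change -0.22), and those with the smallest p were Hyou1, Calr and Hspa5. The branch median was -0.18 in the mice of title number 1 and -0.35 in those of title number 2, and it was -0.14 without LFLS replicate 3 and also without HFHS replicate 1. Hyou1 (ENSMUSG00000032115) encodes GRP170, a large ER chaperone that also resets the nucleotide of BiP. Its level was 83.5, 151 and 235 CPM on LFLS and 55.1, 89.4 and 138 CPM on HFHS, a log2 fold change of -0.77 ± 0.24 (edgeR, adjusted p = 0.0960). Every HFHS library lay below the LFLS median, and LFLS replicates 1, 6 and 7 lay inside the HFHS range. Calreticulin (Calr), which holds newly made glycoproteins until they fold, had 335, 538 and 738 CPM on LFLS and 298, 362 and 519 CPM on HFHS, with a log2 fold change of -0.54 ± 0.19 (edgeR, adjusted p = 0.122). Within title number 1 the groups did not overlap, at 538 to 738 CPM on LFLS and 345 to 519 CPM on HFHS. Within title number 2 they did, at 335 to 448 CPM and 298 to 362 CPM.

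Hspa5 encodes BiP (GRP78), the chaperone whose release from the sensors switches them on and the usual readout of the pathway. Its level in LFLS replicates 1 to 7 was 358, 707, 824.5, 631, 898, 471.5 and 598 CPM, and in HFHS replicates 1 to 7 it was 331, 527, 489.9, 593, 405, 358 and 443 CPM. LFLS replicates 1 and 6 lay within the HFHS range, the other 5 lay above it, and all 7 HFHS libraries lay below the LFLS median of 631 CPM. The log2 fold change was -0.51 ± 0.19 (edgeR, adjusted p = 0.154). The 9 other genes of the branch ran from -0.57 for Creld2, an ER-resident protein, to 0.13 for Herpud1, a membrane protein of ER-associated degradation, and their adjusted p lay between 0.230 and 0.762.

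The lectin chaperone Canx (-0.09), the protein disulfide isomerases Pdia3, Pdia4 and Pdia6 (-0.17, -0.23 and -0.21) and GRP94 (Hsp90b1, -0.13) all had log2 fold changes within about 1 SE of 0, or little more. Hsp90b1 shows how wide the LFLS group was: it had 518, 1005 and 1222.5 CPM on LFLS and 544, 862 and 1354 CPM on HFHS, with 4 HFHS libraries below the LFLS median and 3 above. The secreted protein Manf had a log2 fold change of -0.27 ± 0.12 (edgeR, adjusted p = 0.230), with all 7 HFHS libraries below the LFLS median. Sel1l, the partner of SYVN1 in ER-associated degradation, had a log2 fold change of -0.08 ± 0.10.

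**Figure D3:**
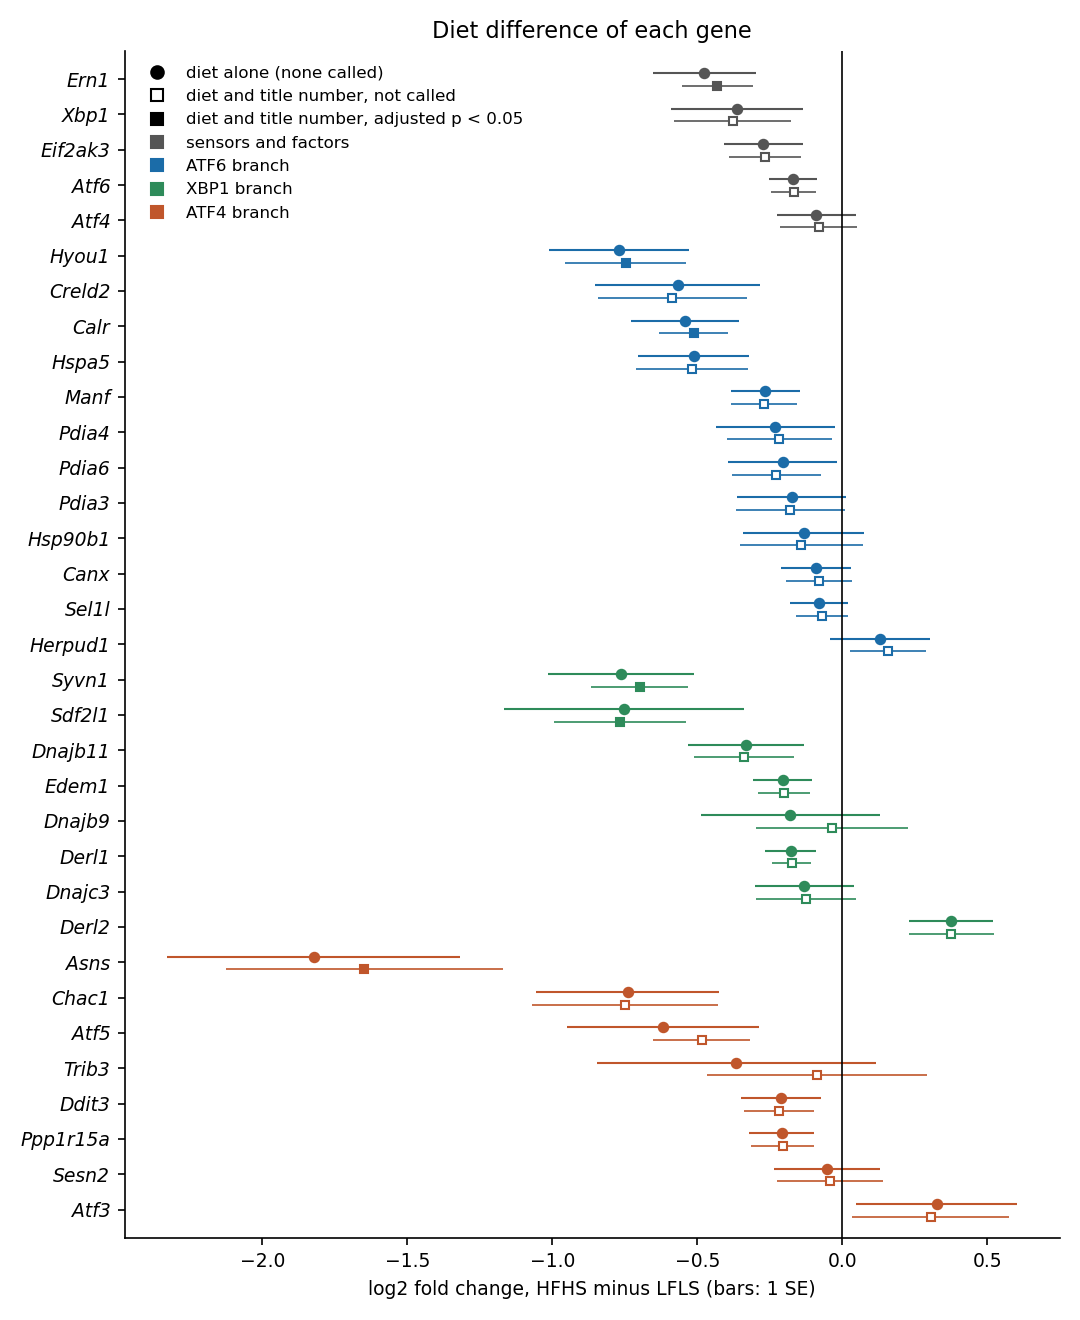
Log2 fold change (HFHS minus LFLS, x axis) with 1 SE for each of the 33 genes, from the model of diet alone (circles) and with the title number added (squares, filled where the adjusted p was below 0.05). The circles run from -1.82 for Asns to 0.37 for Derl2 with none called, and the 6 filled squares are Ern1, Hyou1, Calr, Syvn1, Sdf2l1 and Asns. The model with the title number was an alternative chosen after seeing the data.

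The 8 XBP1-branch genes had a median log2 fold change of -0.19, with 7 lower and Derl2 higher on HFHS. That median was -0.15 in title number 1, -0.39 in title number 2 and -0.31 without LFLS replicate 1. Syvn1 encodes HRD1, the ubiquitin ligase that marks misfolded ER proteins for the proteasome. It had 36.3, 69.9 and 131 CPM on LFLS and 32.9, 42.6 and 67.5 CPM on HFHS, a log2 fold change of -0.76 ± 0.25 (edgeR, adjusted p = 0.111). All 7 HFHS libraries lay below the LFLS median, and in title number 1 the highest HFHS library (67.5 CPM) lay just below the lowest LFLS library (69.9 CPM). Edem1, a lectin that hands misfolded glycoproteins to degradation, had 136, 197 and 233 CPM on LFLS and 163, 169 and 184 CPM on HFHS, with a log2 fold change of -0.21 ± 0.10 (edgeR, adjusted p = 0.280). LFLS replicate 1 held the lowest of these values and lay below every HFHS library.

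Derl2, a membrane protein of the same degradation machinery, ran the other way. It had 38.6, 69.7 and 87.9 CPM on LFLS and 74.1, 92.7 and 108 CPM on HFHS, a log2 fold change of 0.37 ± 0.14 (edgeR, adjusted p = 0.169). The log2 fold change of Derl2 was 0.65 in title number 1 and 0.03 in title number 2. All 7 HFHS libraries lay above the LFLS median, whereas for its paralog Derl1 all 7 lay below it (-0.18 ± 0.09; edgeR, adjusted p = 0.281). The ER-resident DnaJ proteins assist BiP: Dnajb11 had a log2 fold change of -0.33 ± 0.20 and Dnajc3, which also inhibits PERK, -0.13 ± 0.17. Dnajb9 had 11.1, 34.4 and 92.8 CPM on LFLS and 32.4, 38.9 and 42.5 CPM on HFHS. Its 7 HFHS libraries were close together and its LFLS libraries were spread on both sides of them, with replicate 1 lowest and replicate 5 highest. The LFLS spread followed the title number, with 11.1 to 34.4 CPM in number 1 and 45.4 to 92.8 CPM in number 2. The log2 fold change of Dnajb9 was 0.48 in title number 1 and -0.70 in title number 2.

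For Sdf2l1, a subunit of the ER chaperone complex around BiP, the LFLS libraries separated by title number. On HFHS, replicate 1 lay within the range of the libraries of title number 2. LFLS replicates 1 to 4 had 35.0, 36.1, 34.65 and 31.0 CPM, and LFLS replicates 5 to 7 had 13.85, 9.18 and 14.8 CPM. HFHS replicates 1 to 4 had 7.70, 22.6, 24.5 and 26.7 CPM, and HFHS replicates 5 to 7 had 7.71, 4.75 and 9.62 CPM. Within title number 1 every HFHS mouse was below every LFLS mouse, and within title number 2 the groups overlapped by 1 mouse of each diet. With diet alone in the model the log2 fold change was -0.75 ± 0.41 (edgeR, adjusted p = 0.327).

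The 8 ATF4-branch genes had a median log2 fold change of -0.29, with 7 lower and Atf3 higher on HFHS, and their values ran from -1.82 to 0.33. The median depended on the mice and the tool: it was -0.43 in title number 1 and -0.059 in title number 2, -0.16 without LFLS replicate 1, -0.19 without LFLS replicate 3 and -0.15 with limma's voom. Asns, which makes asparagine and is a classic ATF4 target, had the smallest adjusted p of the 33 genes. Its level in LFLS replicates 1 to 7 was 1.13, 4.695, 2.18, 1.80, 8.33, 1.925 and 9.11 CPM, and in HFHS replicates 1 to 7 it was 0.4065, 0.8289, 0.847, 2.64, 1.64, 0.973 and 1.02 CPM. LFLS replicates 2, 5 and 7 stood above all HFHS mice, and 6 of the 7 HFHS libraries lay below the LFLS median of 2.18 CPM. The log2 fold change was -1.82 ± 0.51 (edgeR, adjusted p = 0.0635) and rested on 20 to 361 counts per library.

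Chac1, a glutathione-degrading enzyme induced through ATF4, had 2.12, 2.67 and 6.81 CPM on LFLS and 1.23, 1.83 and 3.45 CPM on HFHS, a log2 fold change of -0.74 ± 0.32 (edgeR, adjusted p = 0.208). The highest values were in LFLS replicates 3, 6 and 7, and the remaining 4 LFLS libraries lay inside the HFHS range. The transcription factor Atf5 had 82.9, 309.9 and 405 CPM on LFLS and 85.9, 170.02 and 246 CPM on HFHS, a log2 fold change of -0.62 ± 0.33 (edgeR, adjusted p = 0.315). Its 3 LFLS libraries of title number 2 (82.9 to 152 CPM) were below every HFHS library of title number 1 (170.02 to 246 CPM).

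Trib3, a pseudokinase that binds AKT and is induced by ATF4, showed opposite signs in its mean and its ranks. Its level was 1.80, 3.89 and 24.7 CPM on LFLS and 4.32, 6.12 and 9.004 CPM on HFHS. All 7 HFHS libraries lay above the LFLS median, yet the fitted log2 fold change was -0.37 ± 0.48 (edgeR, adjusted p = 0.709), with LFLS replicates 1 and 3 at 24.7 and 13.3 CPM. Without LFLS replicate 1 the log2 fold change was 0.25. Ddit3, which encodes CHOP, and Ppp1r15a, which encodes the phosphatase subunit GADD34, had log2 fold changes of -0.21 ± 0.14 and -0.21 ± 0.11, and for both all 7 HFHS libraries lay below the LFLS median. Atf3 (0.33 ± 0.28) and Sesn2 (-0.05 ± 0.18) had SEs close to or larger than their differences.

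**Figure D4:**
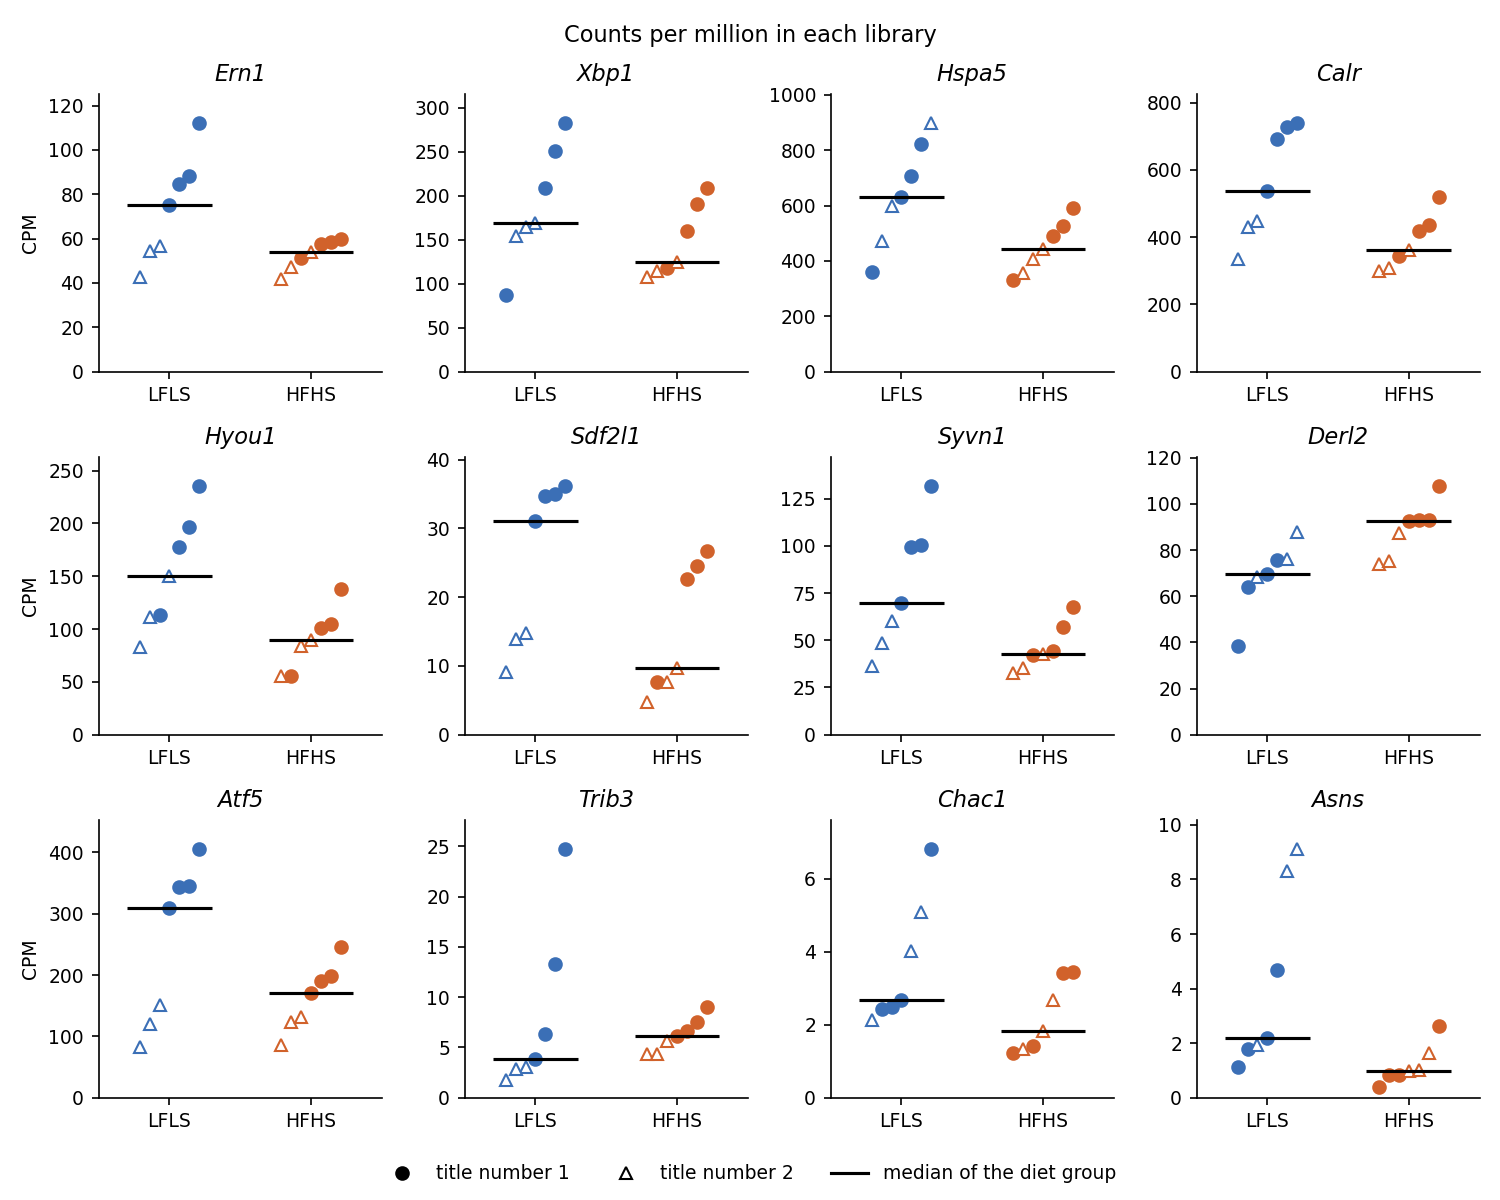
CPM in each library (y axis, from 0) for 12 of the genes by diet; filled circles are libraries of title number 1, open triangles those of title number 2, and black lines mark the median of the 7 libraries of a diet. For Sdf2l1 and Atf5 the LFLS libraries split by title number (31.0 to 36.1 against 9.18 to 14.8 CPM for Sdf2l1), Trib3 has 1 LFLS library at 24.7 CPM, and the 3 highest Asns values, 4.695, 8.33 and 9.11 CPM, are all LFLS.

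The number at the head of the library titles moved with several of these genes in both diets. With diet in the model, 8 of the 33 genes were lower in the libraries of title number 2 than in those of title number 1 (edgeR, adjusted p below 0.05), beside 14.8% of all tested genes, and 1 was higher, beside 13.9%. The 8 were Sdf2l1 (log2 difference -1.46 ± 0.24), Trib3 (-1.38 ± 0.40), Atf5 (-1.19 ± 0.17), Syvn1 (-0.78 ± 0.17), Calr (-0.57 ± 0.12), Ern1 (-0.53 ± 0.12), Pdia6 (-0.45 ± 0.16) and Derl1 (-0.20 ± 0.07), and the higher one was Herpud1 (0.45 ± 0.13). Herpud1 had 182, 355 and 461 CPM on LFLS and 288, 349 and 415 CPM on HFHS.

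Adding the title number to the model of diet was an alternative chosen after seeing the data. With it added, 6 of the 33 genes passed as lower on HFHS, beside 4.56% of all tested genes, and 0 passed as higher. They were Calr (-0.51 ± 0.12; edgeR, adjusted p = 0.0186), Syvn1 (-0.70 ± 0.17; 0.0209), Hyou1 (-0.75 ± 0.21; 0.0383), Ern1 (-0.43 ± 0.12; 0.0404), Asns (-1.65 ± 0.48; 0.0444) and Sdf2l1 (-0.77 ± 0.23; 0.0486). Each of the 6 had a smaller SE than with diet alone. By role these were 1 of 5 sensors, 2 of 12 ATF6-branch, 2 of 8 XBP1-branch and 1 of 8 ATF4-branch genes. Calr passed in 14 of 14 refits of this model that left out 1 library, and Syvn1 in 13 of 14, failing without HFHS replicate 2 (adjusted p = 0.0567). Ern1 and Hyou1 passed in 4, Sdf2l1 and Asns in 3. The count of genes passing ranged from 1 (without HFHS replicate 2, beside 1.75% of all tested genes called lower) to 11 (without LFLS replicate 1, beside 5.57%), each of them lower on HFHS.

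Taken within each title number, 22 of the 33 genes were lower on HFHS in both and 2 (Derl2 and Atf3) were higher in both, while 4255 and 4542 of the 17223 tested genes were so. For Derl2 and Atf3 the log2 fold changes were 0.65 and 0.51 in title number 1 but only 0.03 and 0.06 in title number 2. Among the 4 against 4 mice of title number 1, Ern1, Calr, Syvn1 and Atf5 passed as lower (edgeR, adjusted p from 0.0224 to 0.0450), beside 3.19% of all tested genes, with log2 fold changes of -0.65, -0.63, -0.91 and -0.79. Among the 3 against 3 mice of title number 2 none passed (0.794% of all tested genes passed as lower), and the same genes had -0.11, -0.32, -0.38 and -0.05. The difference between the title numbers was itself tested: 0 of the 33 genes had an interaction with an adjusted p below 0.05 (edgeR), beside 0.883% of all tested genes. At an unadjusted p below 0.05 there were 5 (Ern1, Dnajb9, Derl2, Atf5 and Trib3), beside 22.6% of all tested genes.

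Other tools drew the line elsewhere. DESeq2 called 3 of the 33 genes lower (Hyou1, Syvn1 and Asns), beside 4.15% of all tested genes. limma's voom with library quality weights called 10 lower (Ern1, Eif2ak3, Hspa5, Calr, Hyou1, Manf, Edem1, Syvn1, Derl1 and Asns), beside 9.05% of all genes, and 2 higher (Herpud1 and Derl2), beside 9.96%. In the model of diet alone, leaving out LFLS replicate 6 let 5 genes pass as lower (Ern1, Calr, Hyou1, Syvn1 and Asns; 2.52% of all genes), leaving out LFLS replicate 1 let 2 pass (Edem1 and Asns; 2.15%), and leaving out HFHS replicate 4 let Asns pass (1.18%). The other 11 single omissions gave 0. In the authors' deposited table the lowest adjusted p (DESeq) of the 33 genes was 0.79, for Hyou1. The log2 fold change given there for Hspa5 was -0.62, against -0.51 here. Deposited values were lower than those fitted here for each of the 33 genes. Examples are Atf6 (-0.29 against -0.17), Sel1l (-0.21 against -0.08), Herpud1 (0 against 0.13) and Derl2 (0.30 against 0.37). The reason for this common shift was not tested.

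To see which genes moved with BiP from mouse to mouse, every tested gene was regressed on the log2 CPM of Hspa5 with diet and title number in the model. A slope of 1 means that the gene changed in proportion to Hspa5. Of the 32 other genes, 10 had a positive slope at an adjusted p below 0.05 (edgeR quasi-likelihood test), beside 0.784% of all tested genes. They were 8 of the 11 ATF6-branch genes (Creld2, Hsp90b1, Hyou1, Pdia3, Pdia4, Pdia6, Manf and Canx) and 2 of the 8 XBP1-branch genes (Dnajb11 and Dnajc3), with 0 of the 5 sensors and factors and 0 of the 8 ATF4-branch genes. All 5 sensors and factors had positive slopes, as did 8256 of 17222 tested genes. Atf4 (0.52 ± 0.13; edgeR, adjusted p = 0.0533) and Xbp1 (0.84 ± 0.23; 0.0589) lay just short of the threshold. The slopes of Creld2, Hsp90b1, Hyou1 and Pdia3 were 1.10 ± 0.23, 1.00 ± 0.17, 0.95 ± 0.17 and 0.94 ± 0.15. That of Manf was 0.55 ± 0.07 and that of Canx 0.47 ± 0.10.

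**Figure D5:**
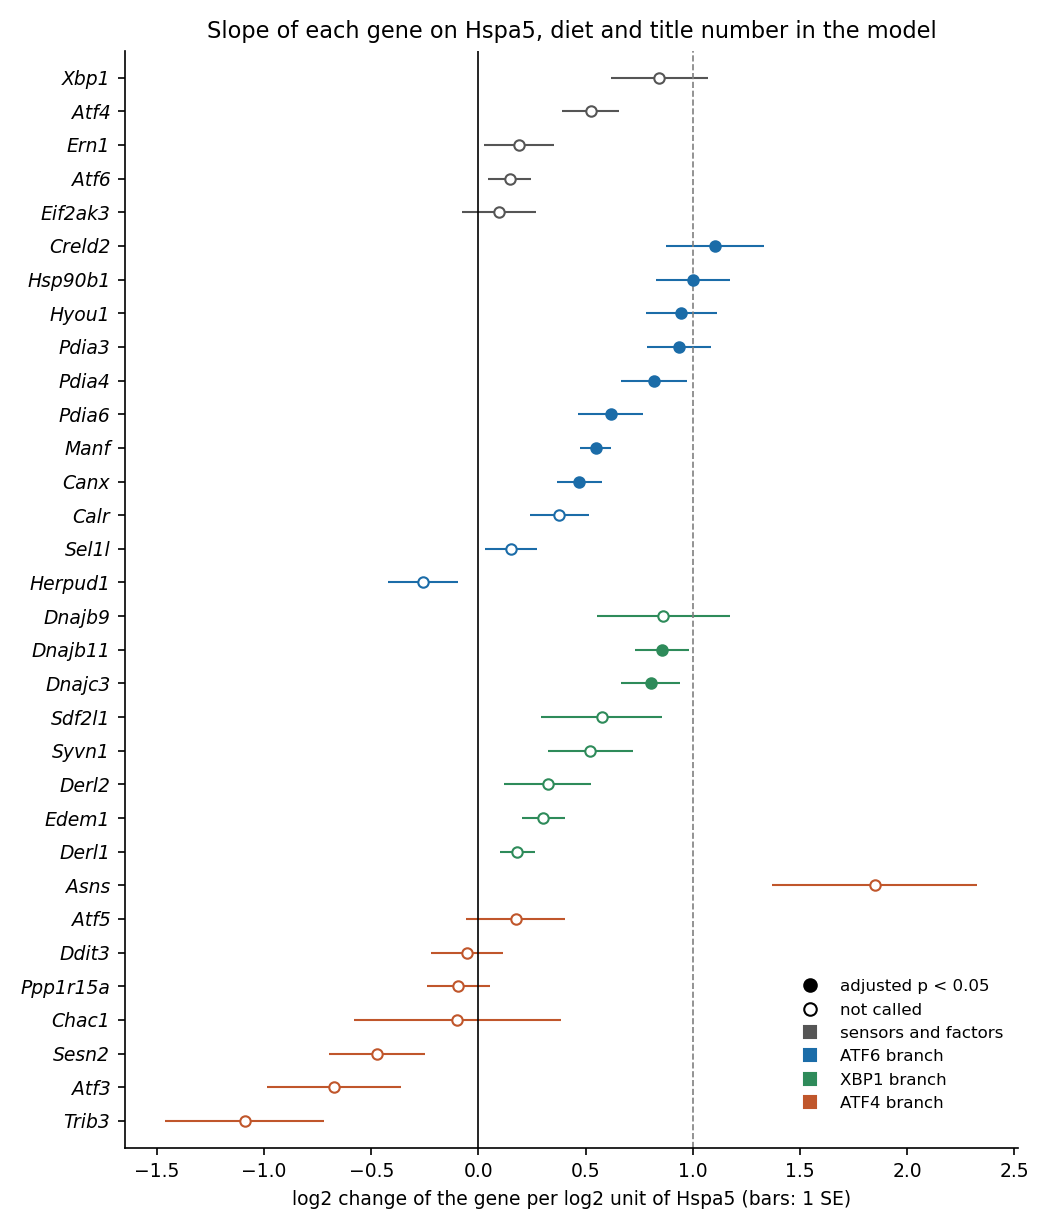
Slope of each gene on Hspa5 over the 14 libraries (x axis, log2 change of the gene per log2 unit of Hspa5, with 1 SE), with diet and title number in the model; filled points had an adjusted p below 0.05, and the dashed line marks a slope of 1. The filled points lie between 0.47 (Canx) and 1.10 (Creld2), and the ATF4-branch genes spread from -1.09 (Trib3) to 1.85 (Asns), none of them called.

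Slopes of the ATF4-branch genes on Hspa5 had both signs, with 2 of the 8 positive. Asns had a slope of 1.85 ± 0.48 (edgeR, adjusted p = 0.0545), while Trib3 (-1.09 ± 0.37; 0.104), Atf3 (-0.67 ± 0.31; 0.198) and Sesn2 (-0.47 ± 0.22; 0.201) had negative slopes. Calr and Syvn1, both low on HFHS, had slopes of 0.38 ± 0.14 and 0.52 ± 0.20 that did not pass. These calls rest on the model and on single mice: 0 of the 32 genes passed without the title number in the model, 0 in title number 1 alone, 0 without LFLS replicate 1 and 1 without HFHS replicate 4, and the other 12 single omissions gave 5 to 13.

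The same regression on Asns, the ATF4 target that differed most between the diets, called 0 of the 32 genes at an adjusted p below 0.05, and 0% of all tested genes. At an unadjusted p below 0.05 (edgeR), 15 of the 32 had a positive slope, beside 5.59% of all tested genes, and 1 (Trib3) had a negative one. The largest of the positive slopes was that of Creld2, 0.52 ± 0.08 (edgeR, adjusted p = 0.101). At any p, 11 of 12 ATF6-branch and 8 of 8 XBP1-branch genes had positive slopes, beside 8141 of 17222 tested genes. Of the other 7 ATF4-branch genes, Ddit3 (0.08 ± 0.07) and Atf5 (0.13 ± 0.10) had positive slopes and 5 had negative ones.

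Genes of the same pathways outside the 33 were read from lists. Of 40 other tested genes of ER folding, export and degradation, 4 passed the test of diet, all lower on HFHS, beside the 2.81% of all tested genes called in either direction, and 27 of the 40 had lower fitted levels. Os9, a lectin of ER-associated degradation, fell from 194, 231 and 271 CPM on LFLS to 160, 163 and 189 CPM on HFHS, without overlap between the groups (log2 fold change -0.44 ± 0.09; edgeR, adjusted p = 0.0169). Pdia5, a protein disulfide isomerase, fell from 58.0, 93.9 and 103 CPM to 29.1, 40.2 and 64.6 CPM (-0.93 ± 0.19; edgeR, adjusted p = 0.0180), with overlap at the ends. Uggt1, which tags unfinished glycoproteins for another round with calreticulin and calnexin, fell by 0.47 ± 0.10 on the log2 scale (edgeR, adjusted p = 0.0222), and Sec61a1, the channel through which proteins enter the ER, fell by 0.54 ± 0.12 (0.0252). With the title number in the model 7 of the 40 passed, all lower, beside 4.56% of all tested genes called lower. These calls were close to the threshold: over 25 alternative settings Os9 passed in 22, Pdia5 in 20, Uggt1 in 16 and Sec61a1 in 15.

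Other arms of the stress responses had no gene past the threshold. Among 25 tested further ATF4 targets and regulators of eIF2alpha, 13 were lower and 12 higher, and the smallest p belonged to the amino acid transporter Slc7a5 (log2 fold change -0.49 ± 0.21; edgeR, adjusted p = 0.207) and the folate enzyme Mthfd2 (-0.47 ± 0.20; 0.216). Among the 20 cytosolic aminoacyl-tRNA synthetases, many of which ATF4 also controls, 16 were lower, led by Aars (-0.38 ± 0.10; 0.0569) and Farsa (-0.34 ± 0.10; 0.0758). Of the 15 genes of the cytosolic heat shock response, which answers to HSF1 and not to the ER, 10 were lower, and the smallest p belonged to Dnaja1 (0.52 ± 0.19; 0.137) and Hsf1 (-0.33 ± 0.14; 0.216). Of 14 immediate early genes, which respond to handling and tissue sampling, 8 were lower, with Gadd45b (1.31 ± 0.35; 0.0549) and Klf6 (0.65 ± 0.21; 0.104) leading as higher. At an unadjusted p below 0.05 these 4 lists held 0, 0, 1 and 3 higher and 2, 6, 1 and 1 lower genes. Of all tested genes, 8.81% were higher and 10.8% lower at that level. With the title number in the model Aars, Farsa and Yars passed as lower (edgeR, adjusted p = 0.0174, 0.0215 and 0.0365), beside 4.56% of all tested genes. Dnaja1 and Gadd45b passed as higher (edgeR, adjusted p = 0.0180 and 0.0309), beside 755 of 17223 tested genes.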

How the data were processed

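Poly(A)-selected liver RNA of 14 mice was sequenced as 50 bp single reads, per the labels' protocols. The submitters' processing notes name CASAVA 1.8, Bowtie, TopHat and DESeq with build mm9; none of these sources gives the counting program, its strand setting or how near-identical gene copies were handled. The deposited counts are whole numbers per gene with a lowest value of 1, found for 11120 genes in every library. The authors' deposited table gives group means of normalized signal, their ratio, the log2 ratio and DESeq p-values; its group A equals the LFLS mean (median difference 0.000629%). No deposited column was left unmapped.

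Counts were analyzed in R 4.3.3 with edgeR 4.0.16 (TMM scaling, filterByExpr by diet, quasi-likelihood test, Benjamini-Hochberg adjustment, called at 0.05). An SE is the size of the log2 fold change divided by the square root of F, and log2 CPM used a prior count of 2. CPM values are scaled by TMM library sizes and not by gene length, so levels were not compared between genes. Alternatives were DESeq2 1.42.0, limma 3.58.1, other scalings and filters, subtracting 1 from every count, the title number or title pairs in the model, the mice of either title number by themselves, and the omission of each library in turn.

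The 33 genes, the role groups and all other lists were chosen with earlier results of these data known. Values for every library are given for Hspa5, Asns and Sdf2l1. The lowest, median and highest library values are given for the sensors and for the other genes of smallest p in each branch. Sdf2l1, Trib3, Dnajb9, Herpud1 and Hsp90b1 were added after their values were seen. Of each further list, every called gene or, where none was called, the 2 of smallest p are named. Promoters and their coordinates come from RefSeq on GRCm38.p6, a different build from that of the counts, and no coordinate was carried between builds.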

Additional observations from a re-analysis of the deposited data

Results flagged for a closer look

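In 7 of 66 combinations of gene and diet, the highest or the lowest library lay far from its nearest neighbor for the size of the group (a gap above Dixon's 95% critical value for 7 samples). Chance flags about 1 in 20 such groups. In 6 of the 7 the library was LFLS replicate 1, at the low end. It had 518 CPM of Hsp90b1, where the other LFLS libraries had at least 864 CPM. It had 244.8 CPM of Canx against at least 370.5 CPM, 203.9 CPM of Pdia3 against at least 357.2 CPM, and 183.8 CPM of Dnajc3 against at least 301.8 CPM. Edem1 had 136.2 CPM there against at least 196.4 CPM, and Derl2 had 38.60 CPM against at least 63.86 CPM. All 6 genes belong to the ATF6 or XBP1 branch, whose genes act in the ER, so that shared place follows from the list. The same library had the highest Trib3 level (24.7 CPM) of the 14. The other flag was Eif2ak3 in HFHS replicate 1, at 20.85 CPM, where the other HFHS libraries had at most 15.35 CPM.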

How the results depend on the processing

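The median log2 fold change of the 33 genes stayed below 0 in all 25 alternatives, and over the single-library omissions it ranged from -0.29 to -0.19 (sensors -0.34 to -0.23, ATF6 branch -0.32 to -0.14, XBP1 branch -0.31 to -0.16, ATF4 branch -0.38 to -0.16, all tested genes -0.03 to 0.00). Genes called among all tested numbered 484 (236 higher, 248 lower). Title pairs as a replicate block gave 598 (328 and 270). Without a filter there were 173 (87 and 86), with DESeq2 1258 (543 and 715), with limma's voom 3274 (1716 and 1558), with the title number as a replicate block 1540 (755 and 785), in title number 1 alone 1484 (926 and 558) and in title number 2 alone 269 (134 and 135). Library totals alone split them as 379 higher and 152 lower, and single omissions gave 133 to 853 (79 to 414 higher, 54 to 439 lower). Of the 33 genes, 0 were called; DESeq2 called 3 (3 lower), limma 12 (10 lower, 2 higher), the title number as a block 6 (6 lower), title pairs as a block 5 (5 lower) and title number 1 alone 4 (4 lower). Single omissions gave 0 to 5 (lower, 0 to 5), and with the title number in the model, an alternative chosen after seeing the data, 1 to 11. The cause of these differences was not tested.

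The letters in the titles were not taken to pair the mice. Correlations of deviations exceeded 0.1 in 4 of 7 pairs (-0.07 to 0.41), and 6 of 14 libraries correlated best with their own pair. No expectation by chance was computed, so these values cannot settle whether the letters pair mice. The pair block is given only in this section. Libraries of the other diet correlated by 0.13 with the same title number and by -0.13 with the other.

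Positive slopes on Hspa5 were called for 135 genes and 10 of the 32. Without the title number (no replicate block) both were 0, in title number 1 alone both were 0, without LFLS replicates 3 and 5, the libraries farthest from the median, 463 genes were called, and single omissions gave 0 to 816 genes and 0 to 13 of the 32. On Asns, title number 1 alone gave 32 genes and 1 of the 32, and single omissions gave 0 to 19 genes and 0 to 1 of the 32.

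Fold changes of single genes turned sign as follows. In title number 1 alone they were Atf4 0.090, Hsp90b1 0.13, Canx 0.080, Dnajb9 0.48 and Dnajc3 0.14. In title number 2 alone they were Herpud1 -0.041, Sel1l 0.13, Trib3 0.89, Sesn2 0.31 and Hsf1 0.014. With limma Dnajb9 was 0.025 and Trib3 0.24, and with the pair block 0.036 and 0.13. Single omissions took Dnajb9 from -0.35 (without LFLS replicate 1) to 0.13 (without LFLS replicate 5), Trib3 from -0.52 to 0.25 (without LFLS replicate 1) and Sesn2 from -0.18 to 0.027 (without LFLS replicate 1), with Sesn2 at 0.012 without HFHS replicate 3 or 4.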
